A study of Bos taurus with 16 samples.

Results

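Of the 42862 merged loci counted in white adipose tissue from under the skin (WAT) and in gluteus medius muscle of 8 Holstein bull calves, 188 (0.439%) were abundant in muscle and far lower in WAT, and these muscle-restricted loci are described here. They were chosen by 3 criteria: an Ensembl gene identifier, a mean of at least 100 CPM over the 8 muscle libraries, and a muscle mean at least 16 times the mean over the 8 WAT libraries. CPM is a level scaled to sequencing depth. It is the count of a locus divided by the total over all loci of the library and multiplied by 1e6. The muscle and WAT levels chose the loci, so they are given as a description without a test, whereas the difference between treatments was not used in the choice.

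The calves were 21 days old at the start and drank 8 L of milk replacer per day. For 10 days they received saline (CON, n = 4, calves 1 to 4) or 90 mg/day of 5-hydroxytryptophan (5-HTP, n = 4, calves 5 to 8), the immediate precursor of serotonin. Each calf number occurs once per tissue, giving 16 poly-A captured libraries, and the libraries held 15058963 to 22156739 counts in WAT and 18017558 to 25077800 in muscle after repeated rows of a locus were dropped. Within a tissue, p-values refer to the spread between these calves. The main fit over both tissues had no calf term. It took the 16 libraries as independent, so its p-values do not measure that spread alone.

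Skeletal muscle is built of fibers packed with sarcomeres, the contractile units in which thick filaments of myosin slide along thin filaments of actin. Transcripts for sarcomere proteins, for the calcium release that triggers contraction and for the enzymes that supply its energy are among the most abundant in this tissue, and many of them come from genes that adipocytes hardly use. A sample of WAT can also hold vessels, nerves and traces of adjoining muscle. The counts carry Ensembl identifiers without gene names, and a symbol was paired with only 1 of the 188 members, IGFN1 (ENSBTAG00000046177), a muscle protein built of immunoglobulin-like and fibronectin-type domains. The roles of the other 187 are therefore not stated, the planned lists of muscle and fat markers could not be applied, and the tissue labels could not be checked against markers, since the separation of the members was fixed by their choice. Genome positions were not used here.

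The 188 members took 43.5% ± 1.79 (SD, n = 8) of all muscle counts. By calf the share was 45.8%, 40.2%, 43.4% and 43.9% in CON calves 1 to 4 and 41.9%, 44.7%, 44.9% and 43.6% in 5-HTP-supplemented calves 5 to 8. The ranges of the groups overlapped, and the group means were 43.3% ± 2.32 in CON and 43.8% ± 1.40 in 5-HTP-supplemented calves (SD, n = 4 each). In WAT the same loci took 0.189% ± 0.0149 (SD, n = 8) of the counts. By calf this was 0.185%, 0.216%, 0.183% and 0.187% in CON and 0.196%, 0.203%, 0.169% and 0.177% in 5-HTP-supplemented calves. The WAT group means, 0.193% ± 0.0153 and 0.186% ± 0.0161, also overlapped. The scaling affected who belonged. With TMM factors (edgeR's correction for composition) over all 16 libraries, 277 loci met the same criteria, all 188 among them, with 47.7% of muscle and 0.571% of WAT counts.

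**Figure D1:**
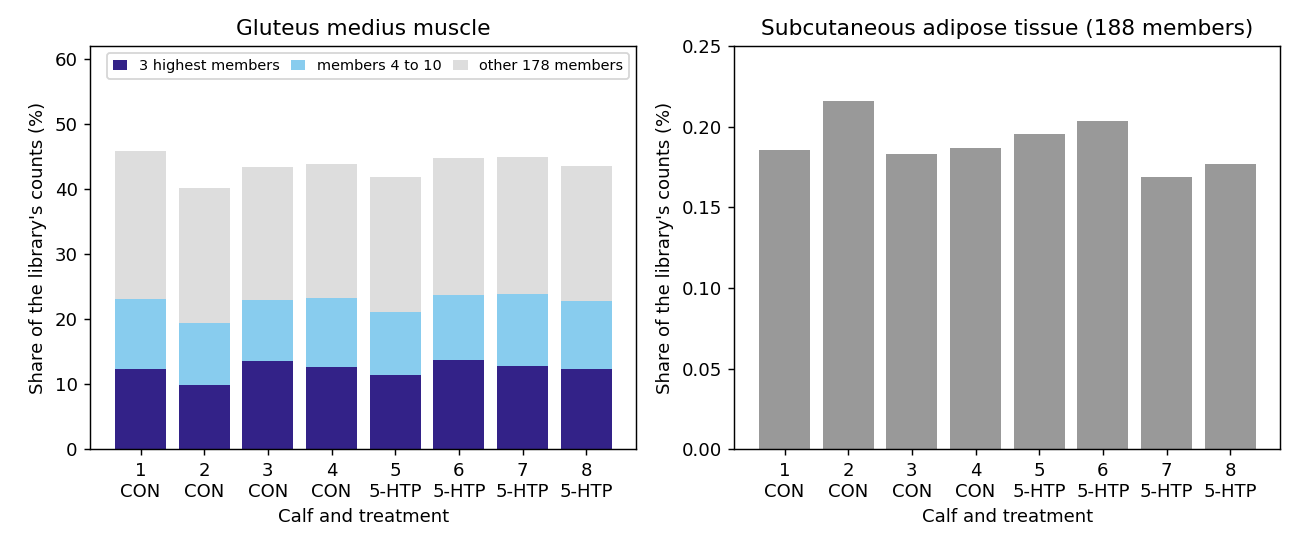
Share of each library's counts (percent) taken by the 188 members, by calf and treatment, in muscle (left, split into the 3 highest members, members 4 to 10 and the other 178) and in WAT (right, on its own scale). The muscle bars lie between 40.2% and 45.8% and the WAT bars between 0.169% and 0.216%.

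A few members made up most of these counts. The highest took 5.75% of muscle counts on average, the 3 highest 12.3% and the 10 highest 22.5%, which was 51.7% of the counts of all members, and the 100 highest took 41.7%. By level, 9 members lay at or above 10000 CPM (21.6% of muscle counts), 48 between 1000 and 10000 CPM (17.6%), 85 between 200 and 1000 CPM (3.71%) and 46 between 100 and 200 CPM (0.656%). The median member had a mean of 402.7 CPM. Among all 1167 Ensembl loci at or above 100 CPM in muscle, the members were 16.1%, and the other 979 serve below as the comparison. CPM is not scaled to transcript length, which was not used here, so the order of levels is an order of counts and not of transcript numbers.

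The highest member, ENSBTAG00000046332, had 67822, 40533, 58990 and 58722 CPM in CON calves 1 to 4 and 51944, 71021, 62929 and 48436 CPM in calves 5 to 8. It was the highest member in all 8 libraries. The next, ENSBTAG00000018204, had 41930, 27283, 47510 and 30019 CPM in CON and 32524, 34133, 24796 and 32597 CPM in 5-HTP-supplemented calves. The third, ENSBTAG00000007090, named after its values were seen, had 13362, 31200, 29258 and 37699 CPM in CON and 28831, 32236, 39598 and 42420 CPM in 5-HTP-supplemented calves. The last 2 carry consecutive numbers among the merged loci and did not keep an order, since each was the higher in 4 of the 8 calves. The ratio of the third to the second ran from 0.319 in calf 1 to 1.60 in calf 7. Their sum was 65675 ± 7510 CPM (SD, n = 8). The coefficient of variation (CV) of the sum was 11.4%, against 22.2% and 28.2% for each alone. A sum of 2 loci of similar level has a smaller CV than each even where they vary independently. The lower CV therefore shows no link between them, and whether it lay under that level was not tested. Reads that fit more than 1 place were not counted, so the counts of loci with near-identical copies are uncertain. Of the 9 neighbouring pairs among the 10 highest members, 3 held their order in all 8 calves, 8 members were among the 10 highest of every calf, and 14 members reached the 10 highest of at least 1 calf.

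In 21 of the 188 members (11.2%, against 12.1% of the other abundant loci) the merged locus listed more than 1 Ensembl identifier, up to 4, so that its count cannot be divided between genes. In all, 9 members stood beside another member by locus number, in 4 runs. The loci next to the limits show how close the choice was. Just inside the level limit stood ENSBTAG00000016754 (100.6 CPM) and ENSBTAG00000051206 (108.9 CPM), and just outside it ENSBTAG00000001503 (96.2 CPM) and ENSBTAG00000010664 (95.1 CPM). Just inside the ratio limit stood ENSBTAG00000014960 (16.01-fold) and ENSBTAG00000004079 (16.5-fold), and just outside it ENSBTAG00000001941 (15.8-fold) and ENSBTAG00000030520 (15.7-fold). A further 3 loci without an Ensembl identifier met both limits and were left out.

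All 188 members were detected in every muscle library, and for each the lowest muscle library lay above the highest WAT library, the smallest of these gaps being 5.17-fold and 8 of them being under 10-fold. In a bulk sample, fewer cells of a type and less RNA per cell cannot be told apart, and this applies to every WAT level below. The median member had 1.65 CPM in WAT, and the median ratio of WAT to muscle was 0.263%, or 380-fold lower. The ratio was at least 32-fold for 163 members, at least 100-fold for 123, at least 1000-fold for 73 and at least 10000-fold for 27. By mean WAT level, 29 members lay under 0.1 CPM, 51 between 0.1 and 1 CPM, 70 between 1 and 10 CPM, 36 between 10 and 100 CPM, and 2 above 100 CPM.

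**Figure D2:**
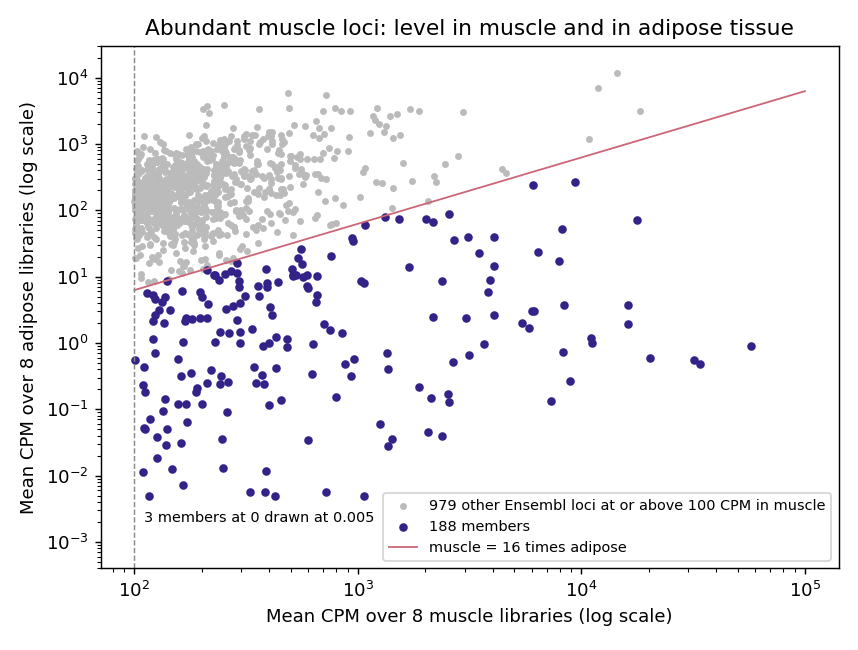
Mean CPM over 8 WAT libraries against mean CPM over 8 muscle libraries, both on log scales, for the 188 members and the 979 other Ensembl loci at or above 100 CPM in muscle, with the 100 CPM limit (dashed) and the line at which muscle is 16 times WAT. The members fall below the line because they were chosen so, and their WAT levels spread from 0 to 267 CPM.

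The 2 members above 100 CPM in WAT gave 26.6% of all member counts there. ENSBTAG00000054745 had 214, 371, 208 and 248 CPM in WAT of CON calves and 225, 395, 217 and 255 CPM in that of 5-HTP-supplemented calves, against a muscle mean of 9339 CPM. ENSBTAG00000005373 had 226, 278, 248 and 269 CPM in CON and 239, 233, 217 and 186 CPM in 5-HTP-supplemented calves, against 6090 CPM in muscle. Neither depended on 1 library. The 36 members between 10 and 100 CPM gave another 57.4% of the WAT counts of the members, whereas the 80 members under 1 CPM gave 1.14% of them. In muscle, the same 80 members took 21.6% of all counts.

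Detection in WAT was thin at that lower end. Of the 188 members, 131 had a count in all 8 WAT libraries and 3 were at 0 in all 8: ENSBTAG00000048585, ENSBTAG00000017509 and ENSBTAG00000019394, at 1059, 426.6 and 116 CPM in muscle. Taking 3 counts over the 8 WAT libraries together as the limit that a count of 0 allows, these were at least 51417-fold, 20703-fold and 5653-fold higher in muscle. Such limits cover counting error only.

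The WAT library of calf 6, a 5-HTP-supplemented calf, stood apart for the members near 0. The highest member of muscle, ENSBTAG00000046332, had 4, 1, 8 and 6 counts in WAT of CON calves and 29, 87, 4 and 8 counts in that of calves 5 to 8. ENSBTAG00000018204 had 0, 0, 0 and 1 counts in CON and 0, 85, 0 and 0 counts in calves 5 to 8, and ENSBTAG00000007090 had 0 counts in every CON calf and 1, 96, 0 and 0 counts in calves 5 to 8. Nearly all WAT counts of these last 2 members came from calf 6. With that library left out, the WAT means went from 0.898 to 0.466 CPM for ENSBTAG00000046332, from 0.487 to 0.00857 CPM for ENSBTAG00000018204 and from 0.548 to 0.00712 CPM for ENSBTAG00000007090. Their muscle-to-WAT ratios over all 8 libraries (64063, 69500 and 58094) therefore rest largely on calf 6.

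Across the low members, the same library was the one with the fewest members at 0, 12 of 188, against 32, 44, 30 and 30 in CON calves 1 to 4 and 23, 36 and 27 in calves 5, 7 and 8. The summed level of the 80 members under 1 CPM was 36.6 CPM there and 26.6 CPM in calf 5, against 14.3 to 21.4 CPM in the other 6 libraries. Calf 6 was also the highest for 8 of the 10 members most abundant in muscle and for 14 of the 22 low members at or above 1000 CPM in muscle. Of the 77 low members detected in WAT, it was the highest library for 21. Among 3899 other loci at such low WAT levels it was the highest for 327 (8.39%). These were Ensembl loci under 100 CPM in muscle with at least 10 WAT counts in all, whereas the 77 needed any count. The shares are therefore not directly comparable. Its library was also the deepest in WAT, with 22156739 counts. Members above 1 CPM did not follow, since 15 of 108 were highest in calf 6 and 32 of 108 in calf 2, a CON calf. The part of muscle tissue held in a WAT sample in these counts was not tested.

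**Figure D3:**
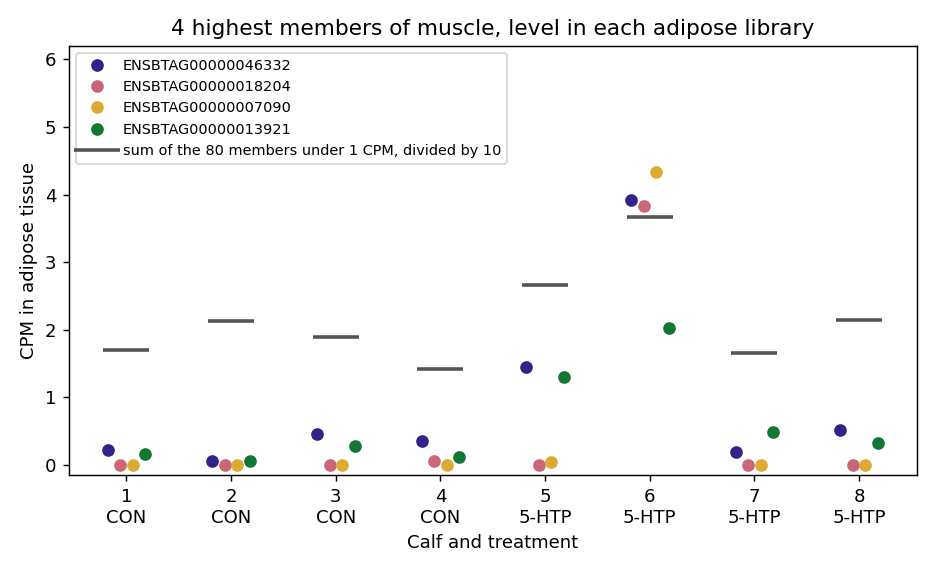
CPM in each WAT library, by calf and treatment, of the 4 highest members of muscle (points), with the summed CPM of the 80 members under 1 CPM divided by 10 (bars). Calf 6 is the highest for all 4 members, and ENSBTAG00000018204 and ENSBTAG00000007090 are at or near 0 in the other 7 libraries.

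In muscle, the members varied between calves by a median CV of 17.6% over 8 libraries (3.90% to 56.0%), against 14.6% for the other 979 abundant loci. Between 100 and 1000 CPM the medians were 17.9% for 131 members and 14.5% for 945 others, and from 1000 CPM up they were 16.5% for 57 members and 16.4% for 34 others. The CV was under 10% for 17 members and over 50% for 4. The steadiest was ENSBTAG00000008301, with 302, 293, 295 and 278 CPM in CON and 280, 289, 290 and 313 CPM in 5-HTP-supplemented calves, followed by ENSBTAG00000001564 (CV 7.59%, mean 4083 CPM). The most variable was ENSBTAG00000046512, with 482, 727, 209 and 270 CPM in CON and 187, 263, 178 and 380 CPM in 5-HTP-supplemented calves, which overlapped. ENSBTAG00000007131 (CV 54.2%) ran from 23.9 CPM in calf 4 to 243 CPM in calf 1.

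**Figure D4:**
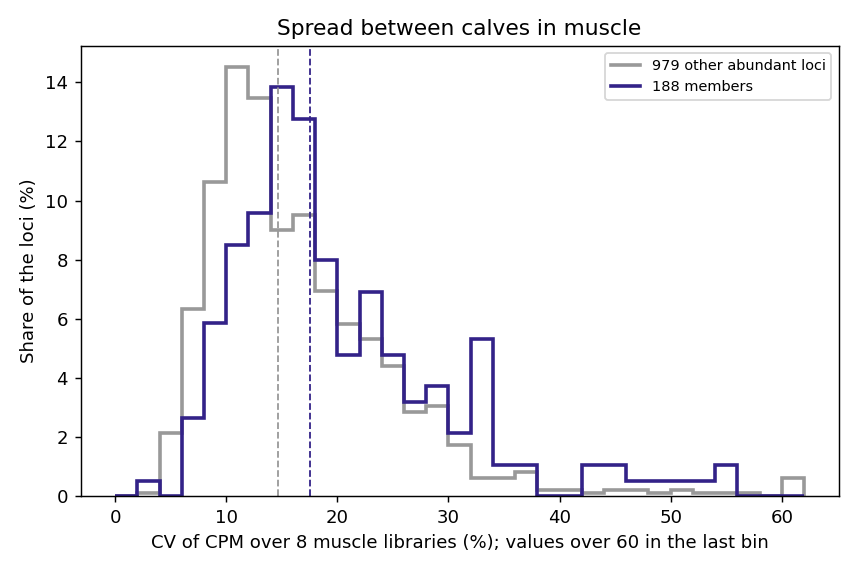
Share of loci (percent) by CV of CPM over 8 muscle libraries, in steps of 2 percentage points, for the 188 members and the 979 other abundant loci, with values over 60% in the last step. Dashed lines mark the medians, 17.6% and 14.6%.

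CON calves were more spread than 5-HTP-supplemented calves in 156 members (83.0%), with median CVs of 20.7% and 11.2%, and the same held for 82.7% of the other abundant loci (17.8% and 8.96%). Calf 1, a CON calf, held an extreme in 118 members (62.8%), being the highest in 64 (34.0%) and the lowest in 54 (28.7%). In the others it held an extreme in 60.9%, being the highest in 23.2% and the lowest in 37.7%. These levels are CPM without TMM factors. Where calf 1 was the highest, the median member lay at 1.36 times the mean of the other 7 calves. Where calf 1 was the lowest, the median member lay at 0.566 of that mean. Without calf 1 the median CV within CON fell to 14.5% in the members, and CON was the more spread group in 127 of 188, while in the others the median CV was 12.3% and CON was the more spread in 635 of 979 (64.9%). Its muscle library also had the lowest TMM factor (0.849, against 0.967 to 1.09 in the others) and the fewest loci detected (22732, against 24057 to 25601). The part of these library properties in the spread was not tested.

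The effect of 5-HTP on the members was read from a fit over all 15624 loci with at least 10 counts in at least 4 muscle libraries. With edgeR's likelihood ratio test and an FDR (Benjamini-Hochberg adjusted) at or under 0.20, 34 loci differed between the groups, 0.218% of those tested. All 188 members were tested, and 1 was called, IGFN1, which was downregulated. The logFC (log2 of 5-HTP over CON) was above 0 for 98 members and below 0 for 90, with a median of 0.02 beside -0.01 over all loci. It was within 0.25 of 0 for 139 members and within 0.5 for 175, and the median standard error of a member was 0.21. An unadjusted P under 0.05 was found for 10 members (5.32%, against 4.92% of all loci), 4 higher and 6 lower. Without calf 1, the median logFC of the members was 0.09 and 30.9% of them were below 0, beside -0.005 and 50.8% over all loci. Leaving out any other calf gave member medians from -0.04 to 0.05, with 43.6% to 55.9% below 0. The quasi-likelihood test of edgeR called 1 of the 15624 loci and no member (697 loci and 9 members at P under 0.05), and DESeq2 called 32 loci and 1 member (779 loci and 11 members at P under 0.05).

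IGFN1 had 4895, 2596, 1957 and 2516 TMM-normalized CPM in CON calves and 1057, 1828, 1076 and 1428 in 5-HTP-supplemented calves. Every 5-HTP-supplemented calf was below every CON calf, and calf 1 was the highest by far. The means were 2991 ± 1301 and 1347 ± 363 (SD, n = 4 each), a logFC of -1.15 (SE 0.29, edgeR likelihood ratio test, FDR 0.0762). The exact two-sided permutation test over the 8 calves gave p = 0.0286, the smallest that 4 against 4 allow. Groups that do not overlap always give this p, so it adds nothing to that separation. It was not adjusted for the number of members, and 2 members reached it. The call was kept by DESeq2 (adjusted p 0.0662) and lost by the quasi-likelihood test (FDR 0.980). It was also lost when calf 5, 7 or 8 was left out, with edgeR FDRs of 0.604, 0.566 and 0.305, though the logFC stayed between -1.34 and -0.81 whichever calf was left out.

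**Figure D5:**
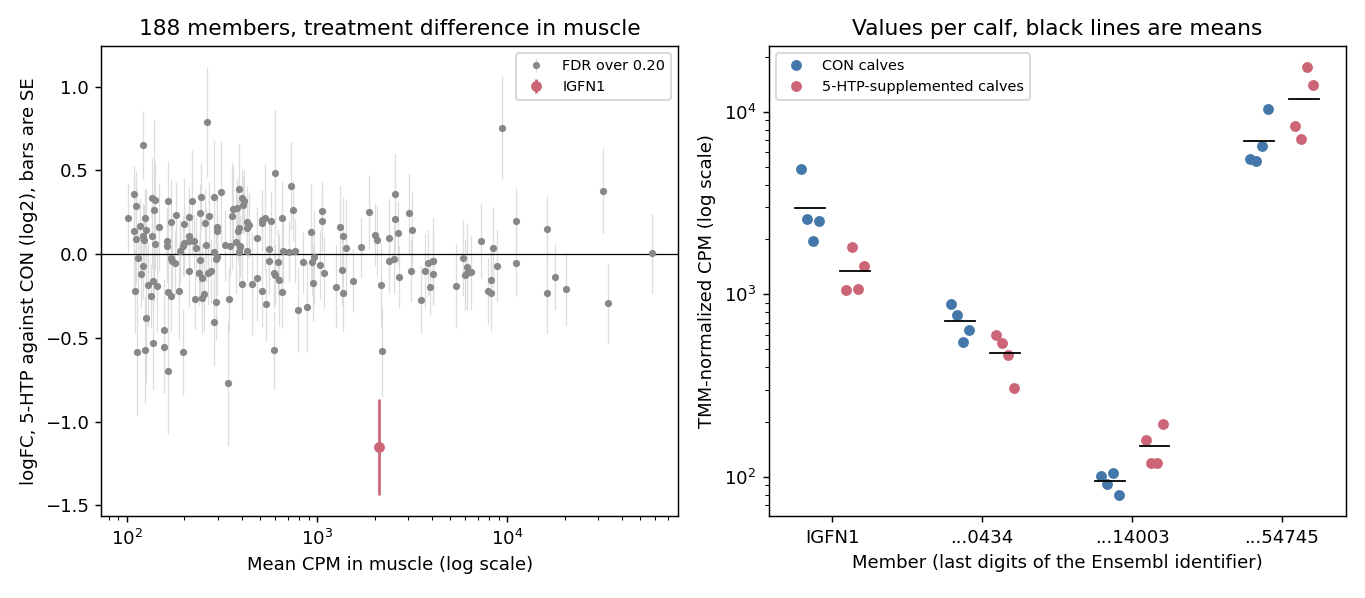
Left, logFC of 5-HTP against CON (log2, bars are SE) by mean muscle CPM (log scale) for the 188 members, with IGFN1 in red. Right, TMM-normalized CPM (log scale) per calf, with black lines at the means, for IGFN1, ENSBTAG00000000434, ENSBTAG00000014003 and ENSBTAG00000054745, of which IGFN1 and ENSBTAG00000014003 show no overlap between the groups.

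No member passed the threshold upward. The smallest P belonged to ENSBTAG00000014003, with 102, 91.4, 105 and 79.7 TMM-normalized CPM in CON and 158, 119, 120 and 196 in 5-HTP-supplemented calves, which do not overlap (logFC 0.65, SE 0.21, edgeR FDR 0.387). It was past the threshold only when calf 6 was left out (edgeR FDR 0.122). Next was ENSBTAG00000054745, the member with the highest WAT level and the 10th in muscle, with 5540, 5372, 6500 and 10393 in CON and 8339, 7070, 17552 and 13980 in 5-HTP-supplemented calves. Calf 4 of the CON group lay among the 5-HTP-supplemented calves (logFC 0.76, SE 0.31, edgeR FDR 0.718). The logFC was 1.01 without calf 4 (FDR 0.124) and 0.49 without calf 7 (FDR 0.999). After IGFN1, the smallest P downward belonged to ENSBTAG00000000434, with 887, 772, 546 and 639 in CON and 599, 540, 464 and 306 in 5-HTP-supplemented calves (logFC -0.58, SE 0.24, edgeR FDR 0.724), and these groups overlapped.

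Of the 188 members, 1 (0.532%) was higher in every 5-HTP-supplemented calf than in any CON calf, against 1.2% of all loci tested, and 1 was lower, against 1.4%. The 10 highest members had logFC values from -0.29 to 0.76 and edgeR FDRs of at least 0.718. For ENSBTAG00000046332 the group means were 58130 ± 17170 and 58339 ± 11747 TMM-normalized CPM (logFC 0.01, SE 0.24). The number of members called moved with the calves: 0 without calf 5, 7 or 8, 2 without calf 1 or calf 6, and 4 without calf 4. The calls over all loci moved too, to 14, 16 and 15 without calf 5, 7 or 8, 20 without calf 1, 143 without calf 6 and 179 without calf 4.

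In WAT, 118 of the 188 members passed the filter of 10 counts in 4 libraries, and the other 70 were left out by it. Of 18872 loci tested, 21 were called (0.111%), none of them a member, by edgeR's likelihood ratio test, with 3 members (2.54%) at an unadjusted P under 0.05, all lower, against 4.42% of all loci. Without the filter, 185 members were tested and none was called (8 at P under 0.05). Of all 36009 loci in that fit, 31 were called (2452 at P under 0.05). The quasi-likelihood test called no member (2 at P under 0.05) and 1 of the 18872 loci (696 at P under 0.05). DESeq2 called no member (3 at P under 0.05) and 27 loci (906 at P under 0.05). In WAT, 2 members were lower in every 5-HTP-supplemented calf (1.05% of all loci tested were), and none was higher in every one (1.38% were). The smallest P belonged to ENSBTAG00000039340, with 2.28, 1.92, 1.13 and 1.62 TMM-normalized CPM in CON and 0.860, 0.280, 0.441 and 0.591 in 5-HTP-supplemented calves, which do not overlap (logFC -1.67, SE 0.51, edgeR FDR 0.447). Next, ENSBTAG00000010880 had 1.57, 15.2, 1.41 and 2.76 in CON and 1.19, 1.45, 0.785 and 1.18 in 5-HTP-supplemented calves, the groups overlapping and calf 2 alone being far above the rest (logFC -2.17, SE 0.72, edgeR FDR 0.687). Without calf 2 the logFC was -0.73. The smallest P upward was that of ENSBTAG00000010464 (logFC 0.94, SE 0.50, edgeR FDR 0.9996), and without calf 8 its logFC was 0.57. The median standard error of a member was 0.39 here, so that only large differences could be seen.

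Whether the effect of 5-HTP differed between the tissues was examined with a tissue by treatment term over 20534 loci in all 16 libraries. The main fit had no calf term. By edgeR's likelihood ratio test 19 loci were called (0.0925%), with 3 of the 188 members among them. These 3 passed the filter on low counts only through muscle, where they were chosen to be high, and were among the 70 left out in WAT, so the calls are given as values and not as support for a difference. Of the 118 members that passed the filter in WAT, 0 were called. The quasi-likelihood test called 0 of the 20534 loci (775 loci and 24 members at P under 0.05). These 24 were not divided between the 118 members that passed the filter in WAT and the 70 that did not. They are therefore no support for a difference either.

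IGFN1 (likelihood ratio FDR 0.000147) had 0 counts in WAT of each CON calf and 8, 6, 0 and 8 counts in that of calves 5 to 8. ENSBTAG00000013921 (FDR 0.00949), the member 4th in muscle, had 3, 1, 5 and 2 counts in WAT of CON calves and 26, 45, 10 and 5 in that of calves 5 to 8, with muscle means of 22089 ± 6508 and 19131 ± 2006 TMM-normalized CPM. ENSBTAG00000007090 (FDR 0.154) had the 97 WAT counts given above, 96 of them in calf 6, and with the calf number as a block its FDR was 1. Without calf 6 the FDRs of ENSBTAG00000013921 and ENSBTAG00000007090 were 0.208 and 0.9998. The likelihood ratio FDR of IGFN1 was 0.00013 without calf 6 and at most 0.00728 whichever calf was left out. With the calf number as a block it was 2.68e-05, and by the quasi-likelihood test without the block 0.99997. The part of the low WAT counts of calves 5 and 6 in these values was not tested otherwise.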

How the data were processed

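RNA of subcutaneous WAT and gluteus medius was captured by poly-A tail and sequenced (NovaSeq, 150 bases, paired). The authors trimmed the reads (Trim Galore 0.4.4), aligned them to the bovine assembly ARS-UCD1.2 (Hisat2), built and merged transcripts (Cufflinks 2.2.1) and assigned uniquely mapped reads to loci (htseq-count). The deposited values are raw counts for 44265 rows per library, where 1166 loci repeat the same count under several identifiers, and 1 row per locus was kept (42862). Whether strand was used is not given in the sources used here.

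Groups came from the tissue and treatment labels. CPM, shares and CVs were computed in Python 3.11.15. In R 4.3.3, edgeR 4.0.16 (TMM, default dispersions, likelihood ratio test, Benjamini-Hochberg, FDR at or under 0.20, as in the study's methods) was run on every locus reaching 10 counts in 4 libraries or more. The quasi-likelihood test and DESeq2 1.42.0 were alternatives. Other filters, RLE and no normalization, and leaving out each calf were also tried. Single members were compared by exact permutation over 70 splits of the calves, after adding 0.001 to the CPM and taking log2. The steps were tested on simulated data.

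The members and lists were chosen with earlier results of these data known. Members named were the 2 at each end of a measure, those called and those with a symbol, and ENSBTAG00000007090, ENSBTAG00000013921 and ENSBTAG00000019394 were added after their values were seen. Of 37063 genes in the reference table (ARS-UCD2.0), 0 matched an identifier.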

Additional observations from a re-analysis of the deposited data

Results flagged for a closer look

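Of 41 groups of 4 libraries examined for a library far from the other 3 (Dixon's gap test at 95%), 4 were flagged. The test's chance rate of about 1 in 20 is no yardstick here. Some groups belonged to members named for their values, and some held mostly counts of 0. The share of WAT counts taken by the members was 0.216% in calf 2, against a median of 0.185% in the other CON calves. ENSBTAG00000018204 had 3.84 CPM and ENSBTAG00000007090 had 4.33 CPM in WAT of calf 6, against a median of 0 in the other 5-HTP-supplemented calves. ENSBTAG00000010880 had 13.7 CPM in WAT of calf 2, against a median of 1.69 CPM in the other CON calves.

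The tissue by treatment term of edgeR's likelihood ratio test was past the threshold for IGFN1 (ENSBTAG00000046177, FDR 0.000147), ENSBTAG00000013921 (FDR 0.00949) and ENSBTAG00000007090 (FDR 0.154). All 3 had few counts in WAT and passed the filter through muscle alone. The quasi-likelihood test called none of the 20534 loci (775 at P under 0.05), and with the calf number as a block ENSBTAG00000007090 had an FDR of 1.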

How the results depend on the processing

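The number of members stayed between 142 and 277 in all settings, and between 184 and 192 when 1 calf was left out. Their share of muscle counts was 41.5% with a ratio of 32 in place of 16 and 47.7% with TMM over all 16 libraries, and 43.3% to 43.8% without 1 calf. Their share of WAT counts was 0.102% and 0.571% in these 2 settings, 0.205% over all rows, and 0.174% to 0.193% without 1 calf. Without the WAT library of calf 6 alone, a setting added after seeing the data, the WAT mean of ENSBTAG00000013921 was 0.392 CPM in place of 0.597. In muscle, 0 members were called by the quasi-likelihood test and at an FDR of 0.05, and 0 to 4 without 1 calf, beside 1. Over all loci the calls in these settings were 1, 8 and 14 to 179, beside 34. In WAT, 0 members were called in all settings, whereas the calls over all loci ran from 1 to 41. The median CV in muscle was 13.7% without calf 1 and 17.4% to 18.4% without any other calf, beside 17.6%. With TMM factors within the tissue it was 20.2%. The median WAT level (1.61 to 1.69 CPM) changed little without 1 calf. The tissue by treatment term called 3 members, 0 by the quasi-likelihood test and 2 to 5 without 1 calf. Over all loci its calls were 19, 0 and 11 to 43 in these settings.

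With the calf number as a replicate block, the tissue by treatment term called 2 members by the likelihood ratio test, beside 19 of the 20534 loci (0.0925%). These 2, IGFN1 and ENSBTAG00000013921, passed the filter through muscle alone, so the calls are no support for a difference. ENSBTAG00000007090 had a likelihood ratio FDR of 1 with this block and ENSBTAG00000013921 of 0.0552. The quasi-likelihood test with this block (added after seeing the data) called 0 members and 0 of all loci. The labels share numbers between tissues without stating that they mark a calf, and the paired deviations of same-numbered libraries correlated at -0.13 to 0.26 over 14460 loci, with 6 of 8 closest to their own number. At these depths WAT levels under 0.135 to 0.199 CPM are under 3 counts in a library.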
